A study of Mus musculus with 2 samples.

Results

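The genes described here belong to the smooth muscle contractile programme and to the YAP and SRF response, and were followed in 3T3-L1 cultures that received a Pink1 siRNA. They were chosen by symbol, as 10 of the 23282 rows of each deposited table. The 7 contractile fibre genes were Acta2, Tagln, Cnn1, Cnn2, Myl9, Tpm1 and Tpm2, and the 3 targets of YAP and SRF were Ctgf, Cyr61 and Ankrd1. The series held 2 cultures of 3T3-L1, a mouse fibroblast line that can become fat cells in culture. One received an siRNA against Pink1, which encodes a mitochondrial kinase, and the other a control siRNA. Each gave 1 QuantSeq library, which reads tags from the 3′ ends of polyadenylated transcripts. The labels call the cells murine adipocytes, give no other treatment, and do not state the time after transfection or the days of differentiation.

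Fibroblasts carry a low version of the smooth muscle programme, which grows when they spread, stiffen or turn into myofibroblasts. A pair of transcriptional systems reads that state of the actin cytoskeleton. Serum response factor (SRF) binds the CArG box and is switched on when its coactivators, the myocardin-related factors Mkl1 and Mkl2, are released from monomeric actin. YAP and TAZ, encoded by Yap1 and Wwtr1, are held in the cytoplasm by the Hippo kinases and otherwise act on DNA through the TEAD factors. Conversion of preadipocytes to fat cells is known to go with a rounder shape, loss of stress fibres and lower activity of both systems.

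With 1 library per group no difference has a replicate check, intervals cover counting error only, and no p-value is given. The Pink1 siRNA library held 14214768 counts and the control library 13803174. Pink1 itself had 351 counts in the Pink1 siRNA library and 511 in the control library, a ratio of 0.687 (95% counting interval 0.598 to 0.788), and its interval widened by the spread of genes of like level, 0.445 to 1.05, included 1. Levels are CPM, counts scaled to a common effective library size, and every ratio puts the Pink1 siRNA library over the control library. Rows with a sum of 40 counts or more over both libraries are termed measured, and these were 11660 rows, among them 9 of the 10 genes. The word called marks a 2-fold or larger ratio in either direction with a counting interval that excludes 1. Because 3′ tags count transcript ends, counts were not divided by transcript length, and in bulk RNA fewer cells expressing a gene and less RNA per cell cannot be told apart.

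The promoter windows of 5 of the genes are shown because they carry the binding letters of the 2 systems. The windows are RefSeq sequences of GRCm38.p6, from 250 bases before to 50 after the transcript start that this table uses, and 8 of the 10 genes matched an entry. Capitals mark the CArG box, a pair of C, a core of A or T and a pair of G, with 1 G or C allowed in the core, and the TEAD motif GGAATG or its reverse complement CATTCC. No 2 marked motifs overlap. The start used is at 34255373 for Acta2, 156775464 for Myl9, 79988600 for Cnn2 and 36119844 for Ankrd1, inside the gene span given with each below. For Cnn1, Tpm1 and Tpm2 it also lies inside the gene span. Distances are counted from the start used, not from the end of the span.
Acta2, chr19:34255324-34255623, minus strand: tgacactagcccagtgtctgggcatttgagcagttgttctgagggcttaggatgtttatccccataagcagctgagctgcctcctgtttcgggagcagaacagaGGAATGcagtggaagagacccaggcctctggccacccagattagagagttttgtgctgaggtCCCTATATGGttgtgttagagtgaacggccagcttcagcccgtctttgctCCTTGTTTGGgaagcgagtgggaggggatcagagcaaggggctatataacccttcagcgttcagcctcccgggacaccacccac
Myl9, chr2:156775214-156775513, plus strand: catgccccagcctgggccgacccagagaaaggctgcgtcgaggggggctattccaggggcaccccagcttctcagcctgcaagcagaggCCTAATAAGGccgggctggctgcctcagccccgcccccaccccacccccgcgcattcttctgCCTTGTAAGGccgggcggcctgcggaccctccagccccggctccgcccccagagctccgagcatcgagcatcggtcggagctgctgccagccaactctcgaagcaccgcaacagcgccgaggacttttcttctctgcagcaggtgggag
Cnn2, chr10:79988350-79988649, plus strand: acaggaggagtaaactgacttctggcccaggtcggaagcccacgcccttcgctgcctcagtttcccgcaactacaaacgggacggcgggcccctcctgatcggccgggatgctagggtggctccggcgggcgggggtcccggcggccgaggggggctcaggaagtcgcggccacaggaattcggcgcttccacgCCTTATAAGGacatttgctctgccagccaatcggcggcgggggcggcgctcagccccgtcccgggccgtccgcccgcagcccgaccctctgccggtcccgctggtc
Cyr61, chr3:145649936-145650235, minus strand: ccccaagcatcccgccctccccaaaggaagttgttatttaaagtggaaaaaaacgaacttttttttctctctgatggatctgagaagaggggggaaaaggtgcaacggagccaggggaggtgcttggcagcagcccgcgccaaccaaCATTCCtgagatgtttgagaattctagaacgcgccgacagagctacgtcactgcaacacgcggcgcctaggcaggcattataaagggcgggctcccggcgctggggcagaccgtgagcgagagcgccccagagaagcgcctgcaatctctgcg
Ankrd1, chr19:36119795-36120094, minus strand: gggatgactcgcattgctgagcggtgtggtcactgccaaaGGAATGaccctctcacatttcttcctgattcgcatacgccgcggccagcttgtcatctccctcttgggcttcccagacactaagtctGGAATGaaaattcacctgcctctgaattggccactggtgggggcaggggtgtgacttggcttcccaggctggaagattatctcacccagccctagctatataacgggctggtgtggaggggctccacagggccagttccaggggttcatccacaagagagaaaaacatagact

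The Acta2 window held 2 CArG boxes, each with 1 deviation in the core, whose first bases lay 84 and 34 bases before the start, and 1 TEAD motif at 146. Myl9 held a box with no deviation at 161 bases before the start and a deviating one at 99. Cnn2 held 1 box with no deviation, CCTTATAAGG, at 56. Cyr61 held 1 TEAD motif at 103 and Ankrd1 held 2, at 210 and 123, and neither held a CArG box. The Tpm1 window, not shown, held 1 TEAD motif at 56, and the Cnn1 and Tpm2 windows held neither motif. Of all 32851 RefSeq windows of this length, 1.63% held a CArG box with no deviation, 9.98% one with at most 1 deviation and 14.7% the TEAD motif. These matches describe letters in the windows and do not show binding.

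None of the 9 measured genes was called in either direction, where 1.69% of all measured genes were called higher and 2.39% lower. Of the 6 measured contractile genes, 5 had a ratio below 1, with a median log2 ratio of -0.35, whereas the median over all measured genes was 0.00 and 48.9% of them had a ratio below 1. Of the 3 YAP and SRF targets, 2 had a ratio above 1, as did 51.1% of measured genes. The median of the 3 YAP and SRF targets was 0.05. Counting intervals lay below 1 for Acta2, Tagln, Myl9, Tpm1 and Tpm2, as they did for 24.9% of all measured genes, and lay above 1 for none of the 9, against 26.2% of all measured genes. Widened intervals, explained with Acta2, lay below 1 for 2.01% and above 1 for 2.09% of measured genes and included 1 for all 9. At a ratio of 1.5, 6.64% of measured genes were called lower and 5.48% higher, with none of the 9 under the main scaling.

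**Figure D1:**
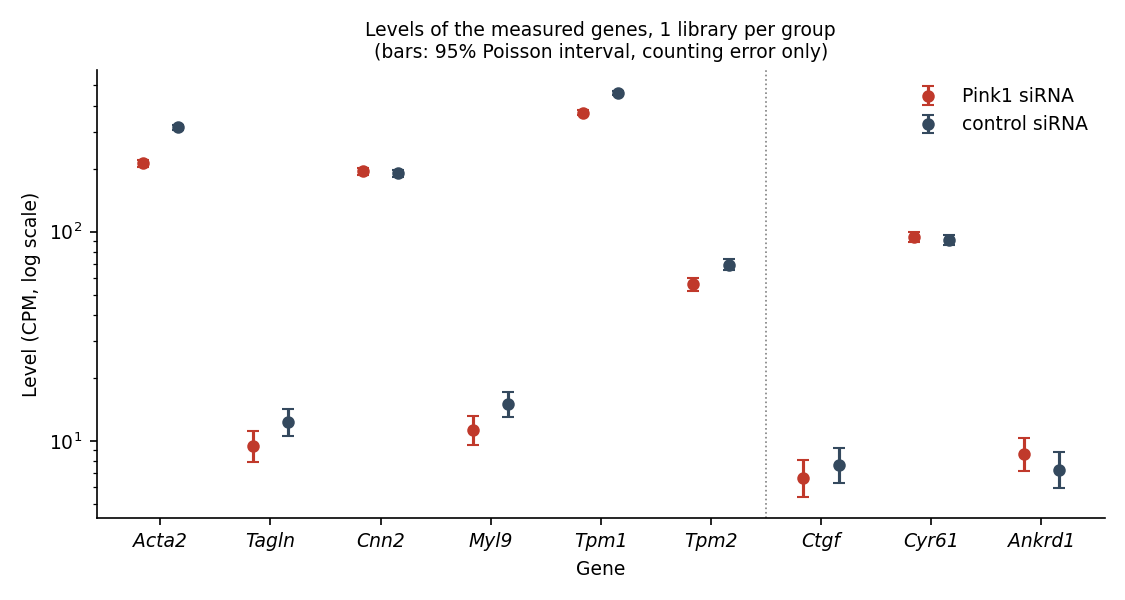
Level of each measured gene (CPM, log axis) in the Pink1 siRNA library (red, left) and the control siRNA library (dark, right), with 95% Poisson intervals that cover counting error only; 1 library per group. Acta2, Tagln, Myl9, Tpm1 and Tpm2 sit lower in the Pink1 siRNA library, while the points of Cnn2 and Cyr61 are nearly level.

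Among the thin filament genes, Acta2, the smooth muscle α-actin that fills the stress fibres of myofibroblasts, was furthest from 1. It had 2967 counts (212 CPM) in the Pink1 siRNA library and 4408 counts (315 CPM) in the control library, a ratio of 0.673 (counting interval 0.642 to 0.705). Genes were also split into 20 equal groups by mean level, called twentieths, to show how far genes of like level differed between the libraries. Acta2 had the lowest ratio of the 583 genes in the highest twentieth, with a log2 ratio of -0.57, where the median was 0.09 and the 5th and 95th percentiles were -0.25 and 0.42. Its interval widened by the mean excess spread of that twentieth, 0.380 to 1.17, included 1. Acta2 ranked 565 by mean level, near the lower edge of that twentieth. The excess spread was 128 there and 32.5 in the twentieth below, so the width of this interval depends on where the edge falls. The gene has 9 exons on chromosome 19 from 34241090 to 34255590 (mm10, minus strand).

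Tropomyosins wind along actin filaments and set which myosins can reach them. Tpm1 had 5186 counts (370 CPM) in the Pink1 siRNA library and 6449 counts (460 CPM) in the control library, a ratio of 0.804 (counting interval 0.775 to 0.834). Of the 583 genes in the highest twentieth, which also holds Acta2, 16 had a log2 ratio as low as that of Tpm1 (-0.31) or lower, itself included. Tpm1, on chromosome 9 from 67022590 to 67049406 (minus strand), has 16 coding transcripts with 6 separate 3′ ends in GENCODE M21, and its counts pool muscle-type and other isoforms. Tpm2, the β-tropomyosin gene on chromosome 4 from 43514711 to 43523765 (minus strand), had 785 counts (56.0 CPM) in the Pink1 siRNA library and 973 counts (69.5 CPM) in the control library. Its ratio of 0.807 (counting interval 0.733 to 0.887) was close to that of Tpm1. For Tpm2, 71 of the 583 genes in its twentieth had a ratio as low or lower. Widened intervals included 1 for both, at 0.518 to 1.24 for Tpm1 and 0.563 to 1.15 for Tpm2.

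Among the actin-binding proteins, Tagln, which encodes SM22α, an early marker of the smooth muscle lineage, had 132 counts (9.42 CPM) in the Pink1 siRNA library and 172 counts (12.3 CPM) in the control library. Its ratio was 0.768 (counting interval 0.607 to 0.969), within the spread of its twentieth, where 125 of 583 genes were as low or lower. Tagln lies on chromosome 9 from 45929619 to 45936058 (minus strand), and its 3′ end overlaps that of Pcsk7 on the other strand by 108 bases. Pcsk7 had 145 counts in the Pink1 siRNA library and 157 in the control library, and because strand use in counting is not given, reads of the 2 genes may not be separable. Calponins bind actin and restrain myosin. Cnn2, the calponin of non-muscle cells, on chromosome 10 from 79988584 to 79996062 (plus strand), had 2717 counts (194 CPM) in the Pink1 siRNA library and 2666 counts (190 CPM) in the control library. Its ratio was 1.02 (counting interval 0.966 to 1.08), and over the 5 library scalings its log2 ratio ran from -0.02 to 0.03, with either sign. Cnn1, the calponin of differentiated smooth muscle, had 0 counts in both libraries. The 95% Poisson interval for that count reaches up to 0.263 CPM in each.

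Myl9, the regulatory light chain of smooth muscle and non-muscle myosin II, was the motor member. It had 158 counts in the Pink1 siRNA library and 210 counts in the control library. The ratio was 0.752 (counting interval 0.608 to 0.929, widened 0.434 to 1.29), and 78 of the 583 genes in its twentieth were as low or lower. Myl9 lies on chromosome 2 from 156775420 to 156781658 (plus strand) with 4 exons.

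**Figure D2:**
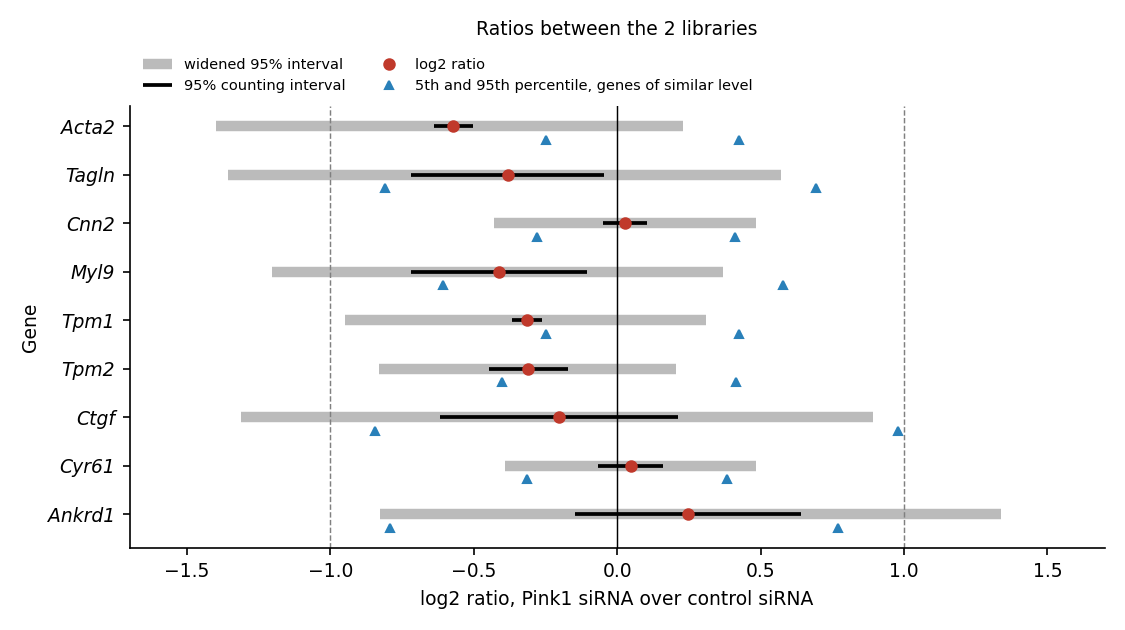
Log2 ratio of each measured gene, Pink1 siRNA over control siRNA (red points), with its 95% counting interval (black), its interval widened by the spread of its twentieth of level (grey) and the 5th and 95th percentiles of that twentieth (blue triangles); dashed lines mark a ratio of 2 either way. Acta2 and Tpm1 lie left of the 5th percentile (-0.25 for both), and every grey interval crosses 0.

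Summed over the 7 genes, the contractile set took 11945 counts in the Pink1 siRNA library and 14878 in the control library, a ratio of 0.803 (counting interval 0.784 to 0.823). Tpm1, Acta2 and Cnn2 hold most of these counts. Without Acta2 the ratio was 0.858 (0.834 to 0.882), so the lower sum did not come from Acta2 alone. These intervals cover counting error only, and no widened interval was made for the sums. The sum of Acta2, Tagln and Myl9, grouped after their values were seen, had a ratio of 0.680 (0.650 to 0.711). Its interval does not allow for that choice. Acta2 gave 2967 of its 3257 counts in the Pink1 siRNA library and 4408 of 4790 in the control library. This sum therefore mostly repeats the ratio of Acta2.

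The YAP and SRF targets stood closer to 1 and on both sides of it. Cyr61, which encodes the matricellular protein CCN1 and is induced by YAP and by SRF, had 1319 counts (94.2 CPM) in the Pink1 siRNA library and 1277 counts (91.2 CPM) in the control library. Its ratio was 1.03 (counting interval 0.956 to 1.12). Ctgf, which encodes the related CCN2, had 93 counts (6.64 CPM) in the Pink1 siRNA library and 107 counts (7.64 CPM) in the control library, a ratio of 0.869 (0.651 to 1.16). The counting intervals of both genes included 1. That of Cyr61 was the narrower, while that of Ctgf is wide enough to hold the ratios of Tagln and Myl9.

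Ankrd1, a muscle ankyrin repeat protein gene widely used as a readout of YAP, was the member with the highest ratio. It had 121 counts (8.64 CPM) in the Pink1 siRNA library and 102 counts (7.28 CPM) in the control library, a ratio of 1.19 (counting interval 0.904 to 1.56). The 3 target genes summed to 1533 counts in the Pink1 siRNA library and 1486 in the control library, a ratio of 1.03 (0.960 to 1.11). Most of these counts were those of Cyr61. The targets lie on chromosome 3 from 145646976 to 145649981 (Cyr61, minus strand), chromosome 10 from 24595442 to 24598683 (Ctgf, plus strand) and chromosome 19 from 36111961 to 36120099 (Ankrd1, minus strand). No 50-base window in the last 500 bases of any coding transcript of the 10 genes matched the same strand of a transcript of another gene exactly.

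**Figure D3:**
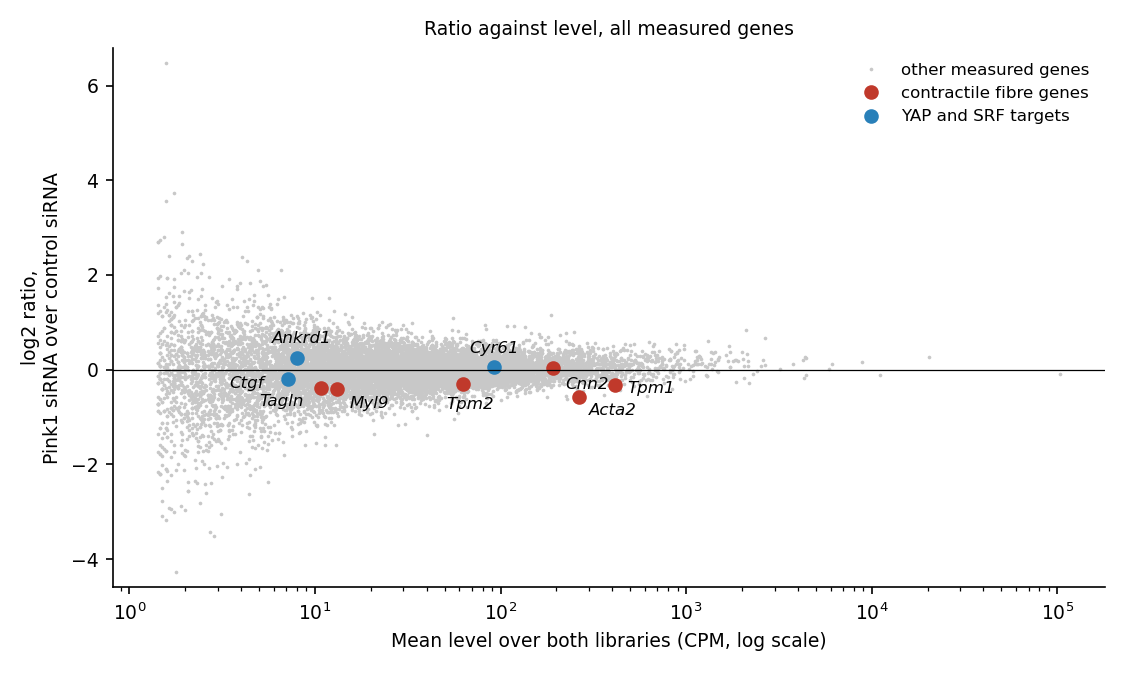
Log2 ratio, Pink1 siRNA over control siRNA, against mean level (CPM, log axis) for the 11660 measured genes (grey), with the contractile fibre genes in red and the YAP and SRF targets in blue. Acta2 (-0.57) and Tpm1 (-0.31) sit at the lower edge of the cloud at their level, while Tagln and Myl9 lie inside the wider cloud of weakly expressed genes.

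Shares within each gene family do not depend on how the libraries were scaled. Acta2 took 4.37% of the counts of the 6 actin genes in the Pink1 siRNA library (exact 95% binomial interval 4.21 to 4.52) and 5.67% in the control library (5.51 to 5.84). Actb and Actg1, the cytoplasmic actins, made up nearly all the rest, and their own ratios were 0.890 and 0.866. The ratio of Acta2 was lower than those of the cytoplasmic actins, which were themselves below 1, while Actc1 had no count. Actg2, the other smooth muscle actin, had 3 counts in the Pink1 siRNA library and 21 in the control library (ratio 0.143, counting interval 0.0273 to 0.478). Acta1, the skeletal muscle actin, had 7 counts in the Pink1 siRNA library and 15 in the control library (ratio 0.467, 0.161 to 1.22), and both genes were below the 40 counts that make a gene measured.

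The other muscle-type members also took smaller shares of their families. Tpm1 held 33.4% of tropomyosin counts in the Pink1 siRNA library (32.7 to 34.2) and 36.6% in the control library (35.9 to 37.3), next to ratios of 0.932 for Tpm3 and 0.937 for Tpm4. Myl9 held 1.60% of regulatory light chain counts in the Pink1 siRNA library (1.36 to 1.87) and 2.22% in the control library (1.94 to 2.54), beside Myl12a at a ratio of 1.06. For Tpm2 and Tagln the intervals of the 2 libraries overlapped, at 5.06% against 5.52% of tropomyosin counts and 3.60% against 4.33% of transgelin counts.

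Cnn2 went the other way within the calponins. It held 47.7% of their counts in the Pink1 siRNA library (46.4 to 49.0) and 43.2% in the control library (42.0 to 44.5), while Cnn3, the third calponin, had a ratio of 0.850. Within the CCN family, Cyr61 held 38.6% of counts in the Pink1 siRNA library (37.0 to 40.3) and 39.8% in the control library (38.1 to 41.6), and its intervals overlapped. The intervals of Ctgf overlapped as well, at 2.72% in the Pink1 siRNA library and 3.34% in the control library. Tpm3, Tpm4 and Myl12a are given as partners in these shares.

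**Figure D4:**
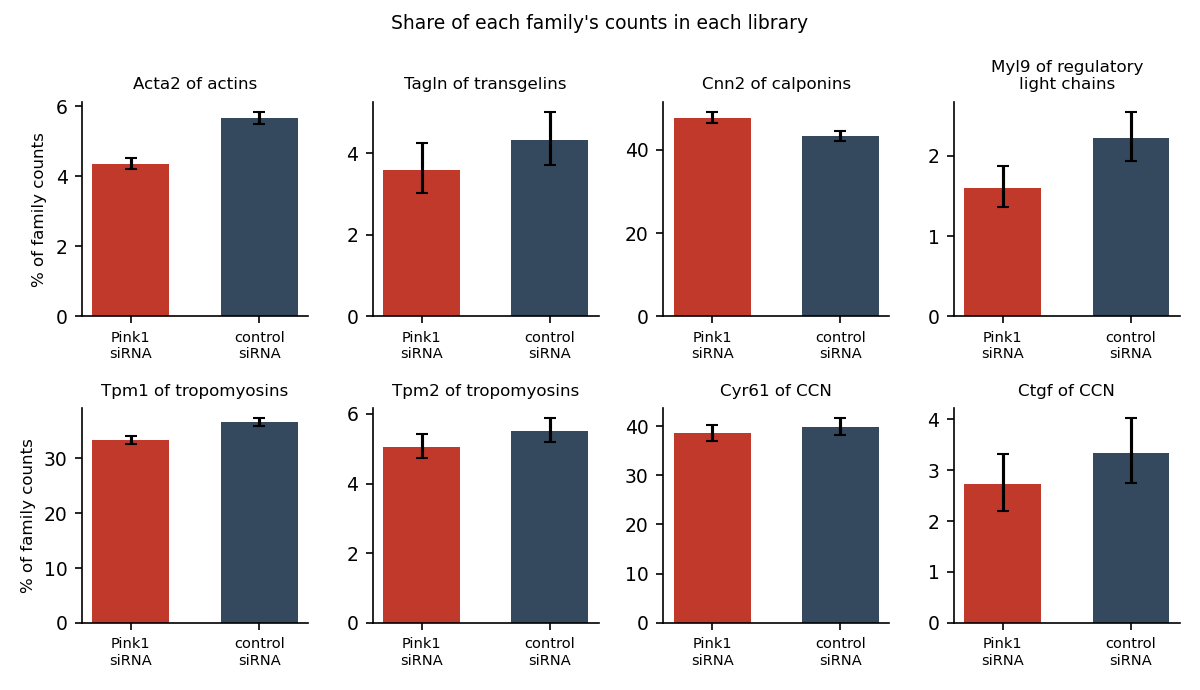
Percent of the family's counts taken by each gene in the Pink1 siRNA library (red, left bar) and the control siRNA library (dark, right bar), with exact 95% binomial intervals that cover counting error only; each panel has its own axis from 0. Acta2, Tpm1 and Myl9 take smaller shares and Cnn2 a larger share in the Pink1 siRNA library, with intervals that do not overlap.

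The measured paralogs of the contractile genes had ratios nearer to 1 than their relatives, except Cnn3, which was further from 1 than Cnn2. The 13 paralogs listed include the muscle actins Acta1, Actc1 and Actg2, given above, which were not measured. Of the 13, 9 were measured and none was called, 7 had a ratio below 1 (8 with Myl12b under total-count scaling), and the median log2 ratio was -0.10. The values furthest from 0 were -0.23 for Cnn3, -0.21 for Actg1, -0.17 for Actb and -0.10 for Tagln2, the transgelin of non-muscle cells.

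Most measured markers of differentiated smooth muscle lay on the other side of 1 from Acta2. Of 17 listed, 10 were measured, none was called, and 8 had a ratio above 1 (Mylk and Csrp1 crossed 1 under total-count scaling), with a median log2 ratio of 0.25. Smtn, the filament protein smoothelin, had 509 counts in the Pink1 siRNA library and 373 in the control library (log2 0.45). Des, the muscle intermediate filament gene desmin, had 99 counts in the Pink1 siRNA library and 74 in the control library (log2 0.42). Cald1, the actin-binding regulator caldesmon, had 25425 counts in the Pink1 siRNA library and 20614 in the control library (log2 0.30), with a widened interval of 0.997 to 1.53. Lmod1, the actin nucleator leiomodin 1, had log2 0.25, and Mylk, the kinase that phosphorylates Myl9, had 0.03 or, with total-count scaling, a value just below 0. The lower values among measured markers were those of Ldb3, a Z-disc protein gene (19 and 31 counts in the Pink1 siRNA and control libraries, log2 -0.69), and Ppp1r12b, a myosin phosphatase subunit gene (-0.39). The 7 markers that were not measured went both ways. Myh11, the smooth muscle myosin that defines the mature cell, had 13 counts in the Pink1 siRNA library and 4 in the control library, and Casq2, a calsequestrin gene, had 32 in the Pink1 siRNA library and 5 in the control library. Actg2, given with the actins, and Itga8, an integrin gene with 1 count in the Pink1 siRNA library and 9 in the control library, were lower. Synpo2 had 3 counts in the Pink1 siRNA library and 0 in the control library, and Kcnmb1 and Pcp4l1 had none in either.

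**Figure D5:**
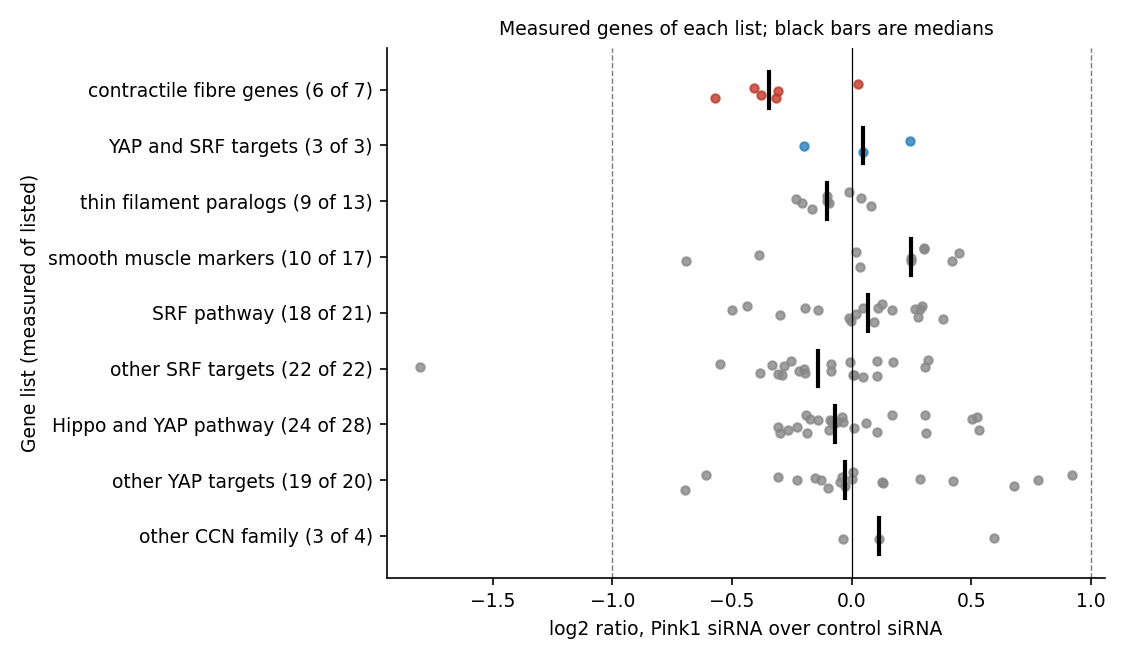
Log2 ratio, Pink1 siRNA over control siRNA, of the measured genes of each list, with black bars at the medians, numbers of measured and listed genes beside each name and dashed lines at a ratio of 2 either way. The contractile fibre genes (median -0.35) lie left of the smooth muscle markers (0.25) and of the YAP and SRF targets (0.05), and the point furthest left is Fos.

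In the SRF arm, Srf itself had 1344 counts in the Pink1 siRNA library and 1260 in the control library, a log2 ratio of 0.09. Its coactivators lay on either side of 0, with Mkl1 at 0.27 and Mkl2 at -0.30, and the smooth muscle coactivator Myocd had 0 counts in the Pink1 siRNA library and 2 in the control library. Over the pathway list, 18 of 21 genes were measured, 0 were called and the median was 0.07. Elk3, an SRF partner of the ETS family, had -0.50, the formin gene Diaph3 (deposited as Diap3) -0.44 and the GTPase gene Rhob 0.38.

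Among 22 other SRF targets, all measured, 14 had a ratio below 1 (Wdr1 and Tln1 joined them under total-count scaling), the median log2 ratio was -0.14, and 1 was called. It was Fos, an immediate early transcription factor gene, with 42 counts in the Pink1 siRNA library and 148 in the control library (ratio 0.284, counting interval 0.196 to 0.402, widened 0.101 to 0.690). Egr1, another immediate early gene, had 2561 counts in the Pink1 siRNA library and 3755 in the control library (log2 -0.55), and its widened interval of 0.506 to 0.916 also lay below 1. On the cytoskeletal side, Pdlim5, a Z-line adaptor gene, had -0.38 and Myh9, the non-muscle myosin heavy chain gene, -0.33.

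The YAP arm showed no common direction. Yap1 had 1363 counts in the Pink1 siRNA library and 1557 in the control library (log2 -0.19), and Wwtr1 had 1284 counts in the Pink1 siRNA library and 1339 in the control library (-0.06). Of the TEAD factors, Tead1 had -0.04, Tead2 0.31, Tead3 0.50 and Tead4 -0.17. Of 28 genes in the Hippo and YAP list, 24 were measured, 0 were called, and the median was -0.07. Sav1, the scaffold of the Hippo kinases, had 743 counts in the Pink1 siRNA library and 513 in the control library (log2 0.53), with a widened interval of 1.01 to 2.10. Mob1b, a coactivator of the Lats kinases, had 0.52, and the kinase gene Lats2, itself a YAP target, -0.31.

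Other YAP targets lay on both sides of 1. Of 20 genes, 19 were measured, none was called, 9 had a ratio above 1 and 10 below (Ajuba and Foxf2 crossed 1 under total-count scaling), and the median was -0.03. The kinase gene Nuak2 had 133 counts in the Pink1 siRNA library and 70 in the control library (log2 0.92), Igfbp3, an IGF-binding protein gene, had 0.78, and F3, the tissue factor gene, 0.68. Dock5, a Rac exchange factor gene, had -0.69. Relatives of the members were mixed too, with the CCN genes Nov at 0.59, Wisp1 at 0.11 and Wisp2 at -0.04, and the ankyrin repeat gene Ankrd23 at -0.92 from 50 counts in the Pink1 siRNA library and 95 in the control library. Among the genes of this paragraph the widened interval left out 1 for F3 alone.

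Cell type markers were read beside these values. All 8 preadipocyte and fibroblast markers had a ratio above 1 (median log2 0.13), with Pdgfrb crossing 1 under total-count scaling. They summed to 22337 CPM in the Pink1 siRNA library and 20032 CPM in the control library. Dlk1 alone held 9329 CPM in the Pink1 siRNA library and 8326 CPM in the control library. Col3a1 and Col1a1 held most of the rest. Of 10 adipocyte markers 9 were measured, 5 with a ratio above 1 and 4 below, with a median log2 ratio of 0.05. The values furthest from 0 were -0.96 for Slc2a4, -0.72 for Plin1, 0.58 for Retn and 0.32 for Cidec. The adipocyte markers summed to 2753 CPM in the Pink1 siRNA library and 2551 CPM in the control library. Of these sums Fabp4 alone held 1196 CPM in the Pink1 siRNA library and 1047 CPM in the control library. Of 7 pericyte markers 3 were measured, with sums of 76.6 CPM in the Pink1 siRNA library and 76.2 CPM in the control library, while Rgs5 was at 0 in both. The 8 skeletal and 6 cardiac muscle markers summed to 11.3 and 1.93 CPM in the Pink1 siRNA library and to 15.5 and 3.93 CPM in the control library. Des, given above with the smooth muscle markers, is also on the skeletal list. It held 7.07 CPM of the skeletal sum in the Pink1 siRNA library and 5.28 CPM in the control library. Among these muscle markers Ttn (32 counts in the Pink1 siRNA library and 92 in the control library) and Tnnt2 (18 and 49) were called lower, with widened intervals that included 1. Myod1, Myog, Myh6 and Myh7 had no count. The 5 endothelial markers summed to 7 counts in the Pink1 siRNA library and 8 in the control library, and the 5 macrophage markers to 46 counts in the Pink1 siRNA library and 62 in the control library. The part of cell make-up in the contractile values was not tested.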

How the data were processed

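RNA was extracted with Trizol and made into QuantSeq 3′ libraries, per the labels' protocols. The submitters' processing notes name mm10 with bcl2fastq (2.20.0.422), Bowtie2 and bedtools. For the annotation, the strand used in counting and multiply mapped reads the entry is: not given in the sources used here. Each deposited table holds raw counts by gene symbol for 1 library, a unit read from its whole numbers. The labels mention no molecular identifiers, so reads copied from 1 molecule cannot be separated.

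Counts were scaled by TMM effective library sizes (edgeR 4.0.16, R 4.3.3). Log2 ratios had 0.5 added to scaled counts. Intervals of ratios were exact conditional binomial intervals at 95% (SciPy 1.17.1). The widened interval divides both counts by the mean squared binomial residual of the gene's twentieth of mean level, and technical spread and real differences both enter it. The 35 symbols found on more than 1 row were kept in library sizes and not named. The calling rule was also run on simulated counts that carried counting error only. Those counts lack the wider spread between these 2 libraries, so that run does not show how far the calls hold here. Gene positions came from GENCODE M21 (GRCm38, the assembly of mm10).

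Named genes were the 10 members, their main regulators, the 4 measured genes furthest from 0 in each list, any marker of the cell type lists, and partners in family shares. Members and lists were chosen with earlier results of these data known. Alternatives were total-count, DESeq2 (1.42.0), upper-quartile and Rn45s-free scaling, other count minimums, folds and intervals. The CArG box with a deviation and the check of shared windows were added after the data were seen.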

Additional observations from a re-analysis of the deposited data

How the results depend on the processing

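Each alternative run changed 1 setting, and alternatives were not combined. No measured member was called higher or lower under any of them, including no interval. At a ratio of at least 1.5, 5.48% of measured genes were called higher and 6.64% lower, and no member. Acta2, at a ratio of 0.673, lay close to that cut, which was run with TMM scaling only. Under total-count scaling its log2 ratio was -0.61 (counting interval -0.68 to -0.55), which is past a 1.5-fold cut. That no member passed 1.5 therefore depends on the scaling. With total counts as library sizes, the summed contractile ratio moved to 0.780. Over all scalings Cnn2 alone of the members took either sign, and Acta2 ran from -0.61 to -0.57 on the log2 scale. The number of genes called higher and lower was 197 and 279. It became 604 and 853 with no filter, 28 and 40 at a summed count of at least 200, 639 and 774 at a ratio of 1.5, and 48 and 81 with the widened interval.

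No paired analysis was possible because each group has 1 library, and leaving out a library empties its group. Depth limits Tagln, Myl9, Ctgf and Ankrd1, whose summed counts were 304, 368, 200 and 223.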
